A study of Oryza sativa with 3 samples.

Results

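The MADS-box genes described here are the rice genes whose symbol or synonym in the gene table is MADS followed by a number, with or without the Os prefix. There were 31 of them among 17905 genes measured, with 39 probe sets in all. RNA from leaves of 3 samples was hybridised to Affymetrix rice arrays, 1 array to a sample: the control Guichao2, labelled wild type, and the lines B10201 and B10301, which carry an OsEBS transgene in the Guichao2 background. All 3 samples were leaves of untreated plants aged 6 weeks, 10 plants to a sample, grown at 28 °C under 14 h light and 10 h dark. Each line was measured once, and the promoter of the transgene is not given in the sources used here. OsEBS is a rice gene studied for its effect on plant biomass and grain-bearing spikelets. Searched by the name EBS, the gene list gave 0 genes, so the level of the transgene was not analysed here.

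MADS-box proteins are transcription factors that bind DNA as dimers and assemble into larger complexes with one another. In flowering plants the B, C and D classes, the SEP and AGL6 clades and part of the AP1/FUL clade specify floral organs and the meristems that bear them. Members of the SOC1, SVP and AP1/FUL clades act earlier, in the vegetative plant and at the change to flowering, and in rice the leaf is where day length is read and the mobile flowering signal Hd3a is made.

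The floor used below is the median of all signals on the 3 arrays, 5.50 on the log2 scale (45.4 in linear signal). A gene counts as above it when the mean log2 signal of its probe set over the 3 arrays exceeds the floor. The signal of a probe set also depends on its probes, so signals are compared between arrays and are not read as transcript levels between genes. Whether a gene lies above or below the common floor carries this probe effect too. The samples are whole leaf tissue, in which fewer cells of a type and less RNA per cell cannot be told apart. In 2 stretches of the B10301 column the values stood 1 row away from their probe sets and were moved back, which touches MADS20, MADS29 and 1 probe set of MADS15 and none of the 11 genes above the floor. The 10 leaf genes measured from a list of photosynthesis and chlorophyll genes, among them the Rubisco small subunit RBCS and the Rubisco activase RCA, were above the floor on all 3 arrays, as were 76.8% of all genes measured. Of 8 measured floral and anther genes outside the MADS-box family 2 had a mean above the floor and 5 were above it on no array. Of 6 genes matched by name to a seed storage list 3 had a mean above it (GLUA-2, WAXY and GLB), where 80.4% of all genes measured had. The locus matched as GLB, LOC4337720, had log2 signals of 12.37, 12.17 and 12.56. It was matched by name alone, and whether it is the storage globulin was not checked.

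Of the 31 MADS-box genes, 11 (35.5%) had a mean above the floor, against 80.4% of all genes measured. The 5 genes of the SOC1 and SVP clades, regulators of flowering time and of the vegetative and inflorescence meristem, were above the floor on all 3 arrays. So were MADS14 and MADS18 of the AP1/FUL clade, MADS57 of the AGL17 clade, and the B class genes MADS2 and MADS16, which makes 10 genes, where 76.8% of all genes measured were above it on all 3. The remaining gene, MADS4 of the B class, was above it in all but B10201. None of the 13 genes of the C class, the D class and the SEP, AGL6 and B-sister clades had a mean above it: 6 were above it on 1 or 2 arrays and 7 on none. By array, 15 MADS-box genes were above the floor in the control, against 81.3% of all genes. In B10201 there were 12, against 82.5%, and in B10301 14, against 82%.

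**Figure D1:**
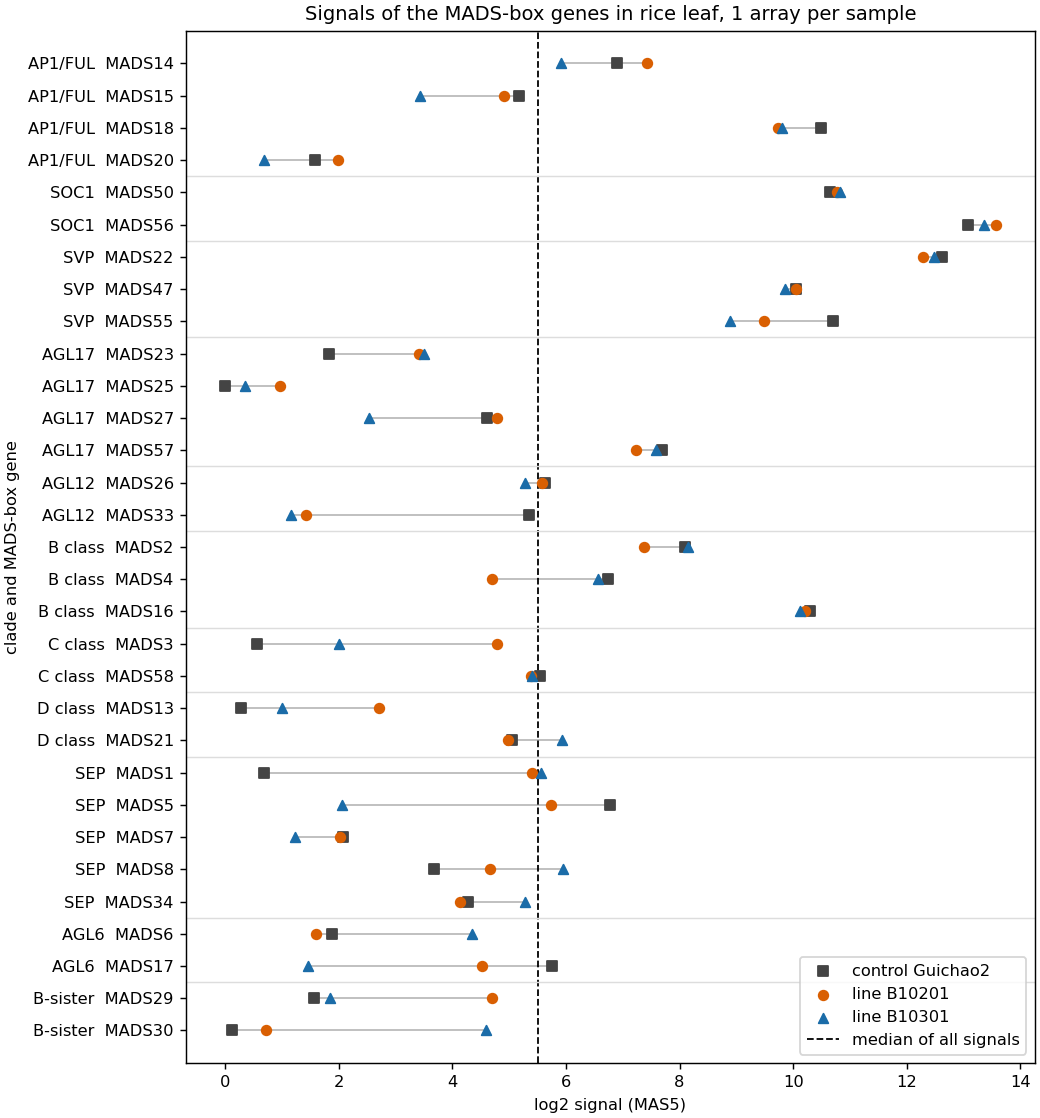
Log2 signal of each of the 31 MADS-box genes on the control array (squares), B10201 (circles) and B10301 (triangles), grouped by clade, with grey bars joining the lowest and the highest array and a dashed line at the median of all signals, 5.50. The genes of the SOC1 and SVP clades lie to the right of the line on every array, and those of the C, D, SEP, AGL6 and B-sister clades lie left of it or on both sides.

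The SOC1 clade holds MADS50, an activator of flowering related to Arabidopsis SOC1, and MADS56, its close relative, known to delay flowering in long days. On the arrays of the control, B10201 and B10301, in that order here and below, MADS50 had log2 signals of 10.64, 10.78 and 10.83. MADS56 had 13.09, 13.57 and 13.35. Both genes were slightly higher in both lines than in the control, with log2 ratios that averaged 0.16 ± 0.04 for MADS50 (SD, n = 2 lines) and 0.37 ± 0.16 for MADS56. With each array centred on its own median the ratio of MADS50 in B10201 was -0.02, on the other side of 0.

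The SVP clade holds MADS22, MADS47 and MADS55, known in rice as negative regulators of brassinosteroid responses. MADS55 (LOC4340495) had log2 signals of 10.70, 9.48 and 8.89, so that both lines lay below the control. It was 2.32-fold lower in B10201 and 3.51-fold lower in B10301, and its log2 ratios averaged -1.51 ± 0.42 (SD, n = 2 lines). MADS22, measured by an s_at probe set that other genes may share, had 12.63, 12.29 and 12.47. MADS47 had 10.06, 10.05 and 9.86. The difference of MADS55 from the control was larger than its difference between the lines (0.59), whereas the ratio of MADS47 in B10201 (-0.01) was close to 0 and turned to 0.05 with quantile normalization.

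MADS55 was the only one of the 11 genes to differ from the control by at least 2-fold in each line. Among all genes above the floor 4.61% did, 2.61% lower and 2% higher (376 and 288 genes, or 522 and 216 with centred arrays). Genes with a mean log2 signal between 9 and 11, as MADS55 has, numbered 5148, and 95% of their mean log2 ratios lay between -1.04 and 0.96. Both ratios rest on the same control array, so an error in its value would move both the same way.

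No MADS-box gene was called by limma, a linear model fitted to all probe sets above the floor. In it the own spread of a probe set comes from the 2 lines alone and is moderated towards that of all probe sets of like signal. At an adjusted p of 0.05 over all 26475 probe sets (Benjamini-Hochberg) 0 of the 11 passed, and 0% of all probe sets did. With robust moderation 52 probe sets passed, none of them the chosen probe set of 1 of the 11. At an unadjusted p under 0.05 there were 2 of the 11, MADS55 and MADS18, against 17.1% of all probe sets. For MADS55 the limma estimate had a moderated standard error of 0.32 and an adjusted p of 0.22, and for MADS18 the adjusted p was 0.21. Higher and lower are used here of measured values, not of calls.

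The AP1/FUL genes are known in rice to act downstream of Hd3a in the meristem, and MADS18 is also active in vegetative tissue. The locus called MADS18 here, LOC4343851, also carries the names MADS2 and MADS28 in the gene table, and MADS2 is used for LOC4325001, which has no other MADS name. MADS18 had log2 signals of 10.50, 9.73 and 9.81. Both lines lay below the control and close to each other, and its log2 ratios averaged -0.73 ± 0.06 (SD, n = 2 lines), 1.71-fold and 1.61-fold lower. MADS15, known for its part in the outer organs of the floret, was below the floor on all 3 arrays with 5.18, 4.91 and 3.44. MADS20 was below it as well, with 1.59, 1.99 and 0.69.

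MADS14 was measured by 4 probe sets that did not give the same picture. The probe set with the highest mean, an x_at set that may cross-hybridise, had log2 signals of 6.90, 7.43 and 5.91, so that the lines lay on either side of the control. A second probe set, without such a suffix, had 6.50, 5.0 and 5.06, and both lines were below the floor there. The other 2 probe sets were below the floor on all 3 arrays. The first probe set gave a log2 ratio of 0.53 in B10201 and the second -1.0, a bound set by the floor. In B10301 the first gave -0.99 and the second -1.0, again a bound, so these probe sets disagreed in B10201 alone. No direction common to both lines is therefore given for MADS14.

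**Figure D2:**
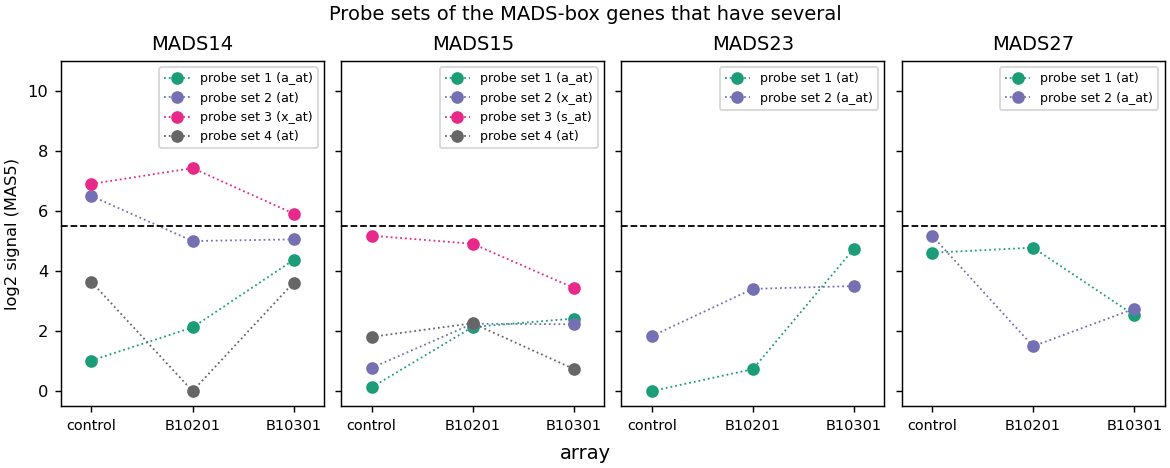
Log2 signal on each array of every probe set of the 4 MADS-box genes that have more than 1, with dotted lines joining the values of a probe set and a dashed line at the median of all signals. In MADS14 the x_at probe set is above the line on all 3 arrays and another probe set only in the control (6.50); the probe sets of MADS15, MADS23 and MADS27 stay below the line.

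MADS57 of the AGL17 clade, known in rice for a role in tillering, had log2 signals of 7.69, 7.23 and 7.59. Its values spanned less than 0.5, with B10201 lowest. The other AGL17 genes, MADS23, MADS25 and MADS27, of which MADS25 and MADS27 are known for roles in the root response to nitrate, were below the floor on all 3 arrays, with signals of the chosen probe sets from 0.00 to 4.78. Of the AGL12 clade, MADS26, known as a regulator of stress responses, lay at the floor with 5.63, 5.58 and 5.27, a mean 0.0081 below it. It is the gene nearest to the floor from below, and MADS4, with a mean of 6.00, the nearest from above. MADS33 had 5.35 in the control, and 1.42 and 1.17 in the lines, all below the floor.

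The B class genes specify lodicules and stamens in the rice floret. MADS16, also called SPW1 and related to Arabidopsis AP3, had log2 signals of 10.30, 10.21 and 10.12. Its 3 values lay within 0.17 of each other. The PI-like genes MADS2 and MADS4, its dimer partners, were both lowest in B10201. MADS2 had 8.10, 7.37 and 8.15. MADS4 had 6.74, 4.70 and 6.57, below the floor in B10201 alone. Its difference from the control there is at least 2.35-fold, a bound set by the floor. The control and B10301 differed by a log2 ratio of 0.05 for MADS2 (-0.09 with centred arrays) and -0.16 for MADS4. For the 8 measured floral and anther genes outside the family the log2 of the summed signal was 9.95, 9.87 and 10.14, and their part in the MADS2 and MADS4 values was not tested. Most of that sum came from GAMYB, with 9.14, 8.74 and 9.12, and MSP1, with 8.28, 8.29 and 8.65. These were the only genes of the list with a mean above the floor.

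Between the lines, 2 of the 11 genes differed at least 2-fold, against 4.15% of all genes above the floor. MADS14 was 2.86-fold lower in B10301 by its x_at probe set, where 2.8% of all genes were at least 2-fold lower, and MADS4 at least 2.1-fold higher in B10301, where 1.35% were. Both are among the dimmer of the 11: for all genes with a mean log2 signal from the floor to 7 the median difference between the lines was 0.43, against 0.15 for signals between 9 and 11. Each line has 1 array, so these differences have no replicate check. That of MADS14 rests on the x_at probe set. Its second probe set had 5.0 in B10201 and 5.06 in B10301, both below the floor.

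**Figure D3:**
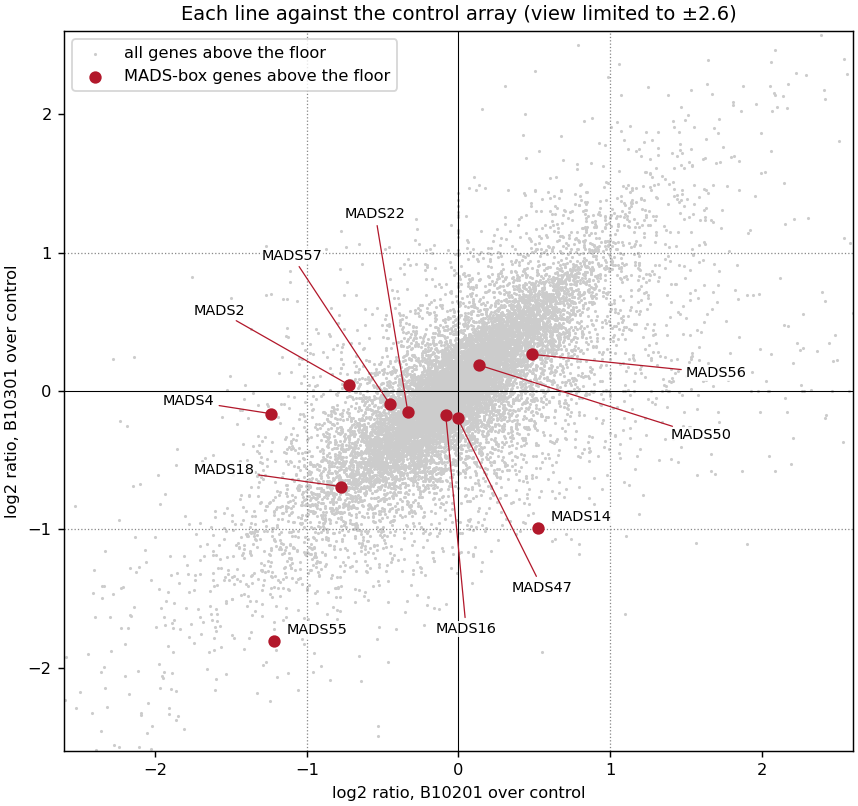
Log2 ratio of B10201 over the control (horizontal) against that of B10301 over the control (vertical) for the 11 MADS-box genes above the floor (red) and all genes above the floor (grey), with dotted lines at a 2-fold difference; signals were raised to the floor, so MADS4 in B10201 is a bound. MADS55 lies beyond 2-fold in both lines, and MADS14 and MADS4 lie apart from the diagonal.

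Over the 11 genes the median log2 ratio was -0.33 for B10201 and -0.16 for B10301. Over all genes above the floor it was -0.02 and -0.01. Lower values in both lines were found for 7 of the 11, against 41.6% of all genes, and higher values in both lines for 2, against 37.8%. For the 10 leaf genes the median log2 ratios were 0.21 and 0.34, with 6 higher and 1, the chlorophyll-binding protein gene CAB2R, lower in both lines; none of the 10 was at least 2-fold from the control in each line, and their part in the MADS-box values was not tested. The MADS-box counts were 8 and 1 with centred arrays, where the median of the mean log2 ratios of all genes was itself -0.16. They were 6 and 2 with quantile normalization, where that median was -0.003. The shares of all genes lower or higher in both lines are not given for these scalings. The 11 passed through their mean over all 3 arrays and are not the whole family.

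The genes of the C and D classes, which specify stamens, carpels and ovules, were near or below the floor. MADS58 had log2 signals of 5.55, 5.39 and 5.40, and MADS21 had 5.05, 4.98 and 5.93. Neither was more than 0.43 above the floor on any array. The mean of MADS58 was 0.059 below the floor, and it was above the lower floor of 5.36 found without x_at and s_at probe sets. MADS3 and MADS13 were below it on all 3 arrays, with signals from 0.28 to 4.79.

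The SEP genes form complexes with the other floral classes. MADS5 had log2 signals of 6.78, 5.74 and 2.07. Its mean was below the floor, so it is not among the 11. Raised to the floor it was 2.06-fold lower in B10201 and at least 2.42-fold lower in B10301. MADS1, also called LHS1 and known for the lemma and palea, had 0.69, 5.40 and 5.55. MADS8 had 3.67, 4.66 and 5.95, and both genes were above the floor in B10301 alone. MADS7 and MADS34 were below it on all 3 arrays, with signals from 1.23 to 5.27.

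Of the AGL6 clade, MADS17 was above the floor in the control alone, with 5.76 against 4.52 in B10201 and 1.47 in B10301. MADS6, known for floral organ identity and meristem fate, was below it on all 3 arrays, as were the B-sister genes MADS29, known for its role in the developing seed, and MADS30. The 13 MADS-box genes below the floor on all 3 arrays had log2 signals from 0.00 to 5.35, and no ratio is given for them.

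Some members lie beside each other along the chromosomes. MADS14 and MADS34 are next to each other on chromosome 3 of the assembly ASM3414082v1; MADS14 was above the floor and MADS34 was not. MADS1 lies on the same chromosome next to DL, a gene of carpel and leaf midrib development, whose log2 signals of 5.26, 5.34 and 5.45 were below the floor on all 3 arrays. MADS33 and MADS13, next to each other on chromosome 12, were both below it.

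Genes of the flowering-time pathway outside the family were set beside these values. Of the list, 26 genes were found in the gene table, 23 were measured and 18 of these had a mean above the floor, where 80.4% of all genes measured had. None of the 18 differed from the control by at least 2-fold in each line, as 4.61% of all genes did, and limma called 0. At an unadjusted p under 0.05 there was 1, the clock gene PRR37, against 17.1% of all probe sets. The median of their log2 ratios was 0.05 for B10201 and 0.10 for B10301. Higher values in both lines were found for 9 of them, against 37.8% of all genes, and lower values in both for 6, against 41.6%, with 3 neither. Hd3a itself was below the floor on all 3 arrays, with 2.61, 3.08 and 4.73.

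GI, PRR73, PHYB, PRR37 and PRR95, of the circadian clock and of light perception, are described because their probe sets were the brightest of the list, which does not rank the genes by transcript level. GI, a clock-associated gene upstream of Hd1, had log2 signals of 14.77, 14.96 and 15.03. PRR37, a pseudo-response regulator that delays flowering in long days, had 12.72, 13.17 and 13.11. PRR73 and PRR95 had mean log2 ratios of 0.09 and 0.10, and the photoreceptor gene PHYB 0.21. At least 2-fold from the control in B10201 and under 2-fold in B10301 were 2 of the 18, against 4.47% of all genes above the floor. LHY, a clock gene, had a log2 ratio of 1.14 (0.61 in B10301) and MFT1, of the same protein family as Hd3a, -1.32 (-0.33 in B10301). Both are among the dimmer of the 18, with log2 signals of 7.12, 8.26 and 7.73 for LHY and 7.35, 6.03 and 7.02 for MFT1. For all genes with a mean from the floor to 7 the median difference between the lines was 0.43, and between 7 and 9 it was 0.27. Hd1, which acts on Hd3a according to day length, had 8.20, 8.07 and 7.69.

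**Figure D4:**
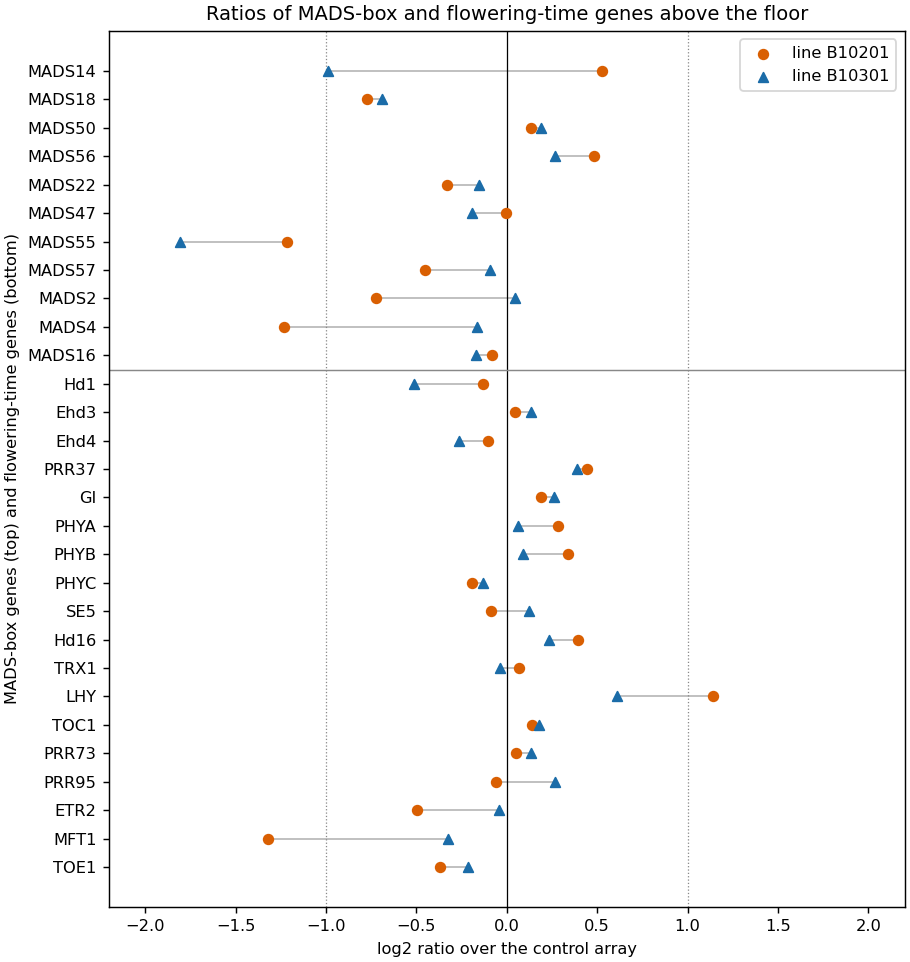
Log2 ratio over the control array in B10201 (circles) and B10301 (triangles) for the 11 MADS-box genes (top) and the 18 flowering-time genes (bottom) above the floor, with grey bars joining the lines and dotted lines at a 2-fold difference. MADS55 is the gene with both points beyond 2-fold; LHY, MFT1 and MADS4 have B10201 beyond it.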

How the data were processed

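The values deposited are log2 signals, one for each probe set and array. The submitters' processing notes name MAS5 as the authors' method; its version and detection calls are not given in the sources used here. In the B10301 column, rows 24427 to 31143 and 53064 to 54051 stood out of step, and each took the value 1 row above: the correlation with the mean of the other arrays across these probe sets was 0.397 and 0.051 as deposited, 0.939 and 0.823 after. MADS20, MADS29 and 1 probe set of MADS15 lie in them, and MADS29 in B10301 went from 5.38 to 1.84. The median log2 signal was 5.41 on the control array, 5.56 on that of B10201 and 5.54 on that of B10301.

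Signals were raised to the floor for ratios. The platform annotation gave 22436 of 57194 probe sets a single gene, 95 more than 1 and 34663 no gene; a gene took its probe set with the highest mean. limma 3.58.1 in R 4.3.3 was fitted with an intensity trend to 26475 probe sets, two-sided, with 1 residual degree of freedom. It was also run on simulated data with the same SD for every probe set on all 3 arrays. In the real data the spread changes with signal and the control has no replicate, so that run does not bear on the results here. The labels give separate lines and no further replicates, so p-values measure only the spread between these samples, moderated with 2.35 prior degrees of freedom. Other steps used Python 3.11.15, pandas 2.3.3 and matplotlib 3.10.9. The rule named every member above the floor on any array, flowering-time genes that differed at least 2-fold in each line, and the 5 with the highest signal. DL, GAMYB, MSP1, Hd3a, Hd1, LHY, MFT1 and the leaf genes were named after their values were seen. Members and lists were chosen with earlier results of these data known. RCN1 and IDS1 matched genes of other families and RAG is a synonym of MADS3; all were left out of the lists. Of 4 measured genes of the inflorescence meristem list 1, and of 3 of the root list 2, had a mean above the floor.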

Additional observations from a re-analysis of the deposited data

How the results depend on the processing

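The number of MADS-box genes above the floor was 11 and became 21 with a floor at the 25th percentile, 7 at the 75th, and 18 when 1 array above the floor sufficed, an alternative chosen after seeing the data; without 1 line it was 11 to 13. The number of MADS-box genes that differed from the control by at least 2-fold in each line was 1 (MADS55) and became 4 with the floor at the 25th percentile, 7 without a floor, 2 without x_at and s_at probe sets (MADS14 and MADS55) and 2 when 1 array above the floor sufficed (MADS5 and MADS55). It was 2 without B10301 and 1 without B10201. The number at least 2-fold apart between the lines was 2 and became 8, 0 and 14 with the floor at the 25th percentile, at the 75th and absent, and 1 with probe sets averaged and without x_at and s_at probe sets. Flowering-time genes at least 2-fold from the control went from 0 to 1 at the 25th percentile and 2 without a floor or without B10301. They were 0 without B10201. The causes were not tested, beyond the floor's own effect on which genes and differences count. Centring the arrays moved the median of all genes from -0.02 to -0.16 and that of the 11 genes from -0.24 to -0.39. Leaving kept values below the floor as measured, also chosen after seeing the data, moved none of these counts. limma called 0 of the MADS-box genes in each alternative fitted. Over all probe sets it called 128 of 57194 without a floor and 85 of 26475 with kept values not raised to it. It called 52 with robust moderation, 2 at a threshold of 0.1, 1 of 14076 genes with probe sets averaged and 0 otherwise. The mean log2 ratio of MADS55 was negative in every alternative, from -1.66 with centred arrays to -1.47 with quantile normalization, and -1.81 to -1.22 with 1 line alone. Of 137 single-gene values, 132 moved by less than the SD between the lines. Dropping 1 line cannot exceed it and many settings move no ratio, so this tests little. MADS14 without B10301 and MADS2 without B10201 changed sign. No paired analysis was possible because there was 1 control array and the labels pair it with neither line. The control cannot be left out, and without 1 line limma had no residual degrees of freedom and gave no test. Precision is limited by 3 arrays, and with no detection calls at hand a signal under the floor is not shown to be background.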
